A study of Triticum aestivum with 14 samples.

Results

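Autophagy genes of wheat (Triticum aestivum) are described here across 5 groups of floret and floret organ samples. A gene was included when its description, gene name or gene ontology text in the deposited table holds the letters "autophag", which selected 70 of 100591 genes. The description matched for 29 genes and the ontology text for 66, and no gene name matched. By KEGG orthology number, description or ontology text, the 70 genes fall under 19 headings, of which 1 is a regulator with no protein name and the others are named proteins or complexes. The text match also took in 3 genes of VPS41 whose only hit was "vacuole fusion, non-autophagic", and 3 genes of the Mon1-Ccz1 complex whose only hit was regulation of autophagy. A further 62 genes that the table places in the KEGG autophagy pathway do not hold the letters and are not members. They include genes with the orthology numbers of ATG1 (6 genes), ATG3 (9), ATG8 (3), ATG18 (4) and ATG16 (1). Gene numbers given below for these proteins therefore count members only.

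Autophagy carries parts of the cytoplasm to the vacuole for breakdown and reuse, and plant cells raise it under starvation, in senescing leaves and in some tissues that die during development. A kinase complex of ATG1, ATG13, ATG11 and ATG101 starts the process, and a phosphatidylinositol 3-kinase complex that holds ATG6 marks the site. ATG9, ATG2 and ATG18 then supply membrane, and ubiquitin-like conjugation systems built around ATG8 and ATG12 expand the autophagosome, which finally fuses with the vacuole.

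Transcript abundance was measured by RNA-seq in 14 libraries of total RNA from untreated central spikelets, all carrying the label N50, which the labels do not explain, and all taken 21 days after the terminal spikelet stage. There were 3 libraries each for the groups F1, F5, Anther and Ovary, and 2 for Lemma. The stated aim was to compare fertile with abortive florets, and to compare the organs of a fertile floret. The labels do not say which of F1 and F5 was fertile, nor that replicates came from separate plants, so the p-values measure only the spread between these samples, which may be technical. The libraries held 75016595 to 105526441 counts, and F1 replicate 1 was the least like its own group (Pearson r of 0.928 and 0.921 on a log scale with the other F1 libraries, against 0.921 to 0.978 over all pairs within groups).

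Lists of genes for other tissues were followed beside the autophagy genes. The 470 core histone genes, which mark dividing tissue, summed to 5463 to 7574 CPM (counts scaled to a common library total) in F1 and 1323 to 1379 in F5, against 15488 to 19830 in Ovary and 848 to 1051 in Lemma, and 398 of the 437 tested (91.1%) were called lower in F5, against 13.7% of all genes. The 502 photosystem and chlorophyll-binding genes summed to 20600 to 44134 CPM in F1, where replicates differed, and to 37103 to 43646 CPM in F5. They reached 42262 to 48951 CPM in the Lemma libraries and no more than 2223 CPM in Anther or Ovary, with 50 called higher and 1 lower in F5 of 316 tested (15.8% and 0.316%), against 10.4% and 13.7% of all genes. The 657 genes with pollen, tapetum, exine or strictosidine synthase in their text summed to 4163 to 4955 in F1, 3736 to 3844 in F5 and 7583 to 7763 in Anther, with 30 called higher and 67 lower in F5 of 431 tested (6.96% and 15.5%). The Lemma libraries summed to 3796 and 3843 CPM. In Anther against Lemma 27.8% of the 497 tested genes of this last list were called higher and 33.2% lower, beside 25.2% and 26.7% of all genes. The part of these tissue differences in the results on autophagy genes was not tested. In these bulk samples, fewer cells of a type and less RNA per cell cannot be told apart.

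Most autophagy genes were expressed at a low to moderate level everywhere. As FPKM, the authors' fragment counts scaled to gene-model length and library size, 55 of the 70 genes had a mean of 1 to 10 over the 14 libraries, 7 had less than 1 and 8 had 10 or more. Between the lowest and the highest of the 5 group means the FPKM of the median autophagy gene differed 1.94-fold, and 37 of 69 genes (53.6%) stayed under 2-fold. Over all genes tested in any comparison the median was 5.08-fold and 9.16% stayed under 2-fold, or 13.3% of those with a mean of at least 1 FPKM. FPKM were also divided by TMM factors (trimmed mean of M-values), which set the bulk of genes level between libraries. The median was then 1.88-fold for autophagy genes and 4.74-fold for all genes.

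**Figure D1:**
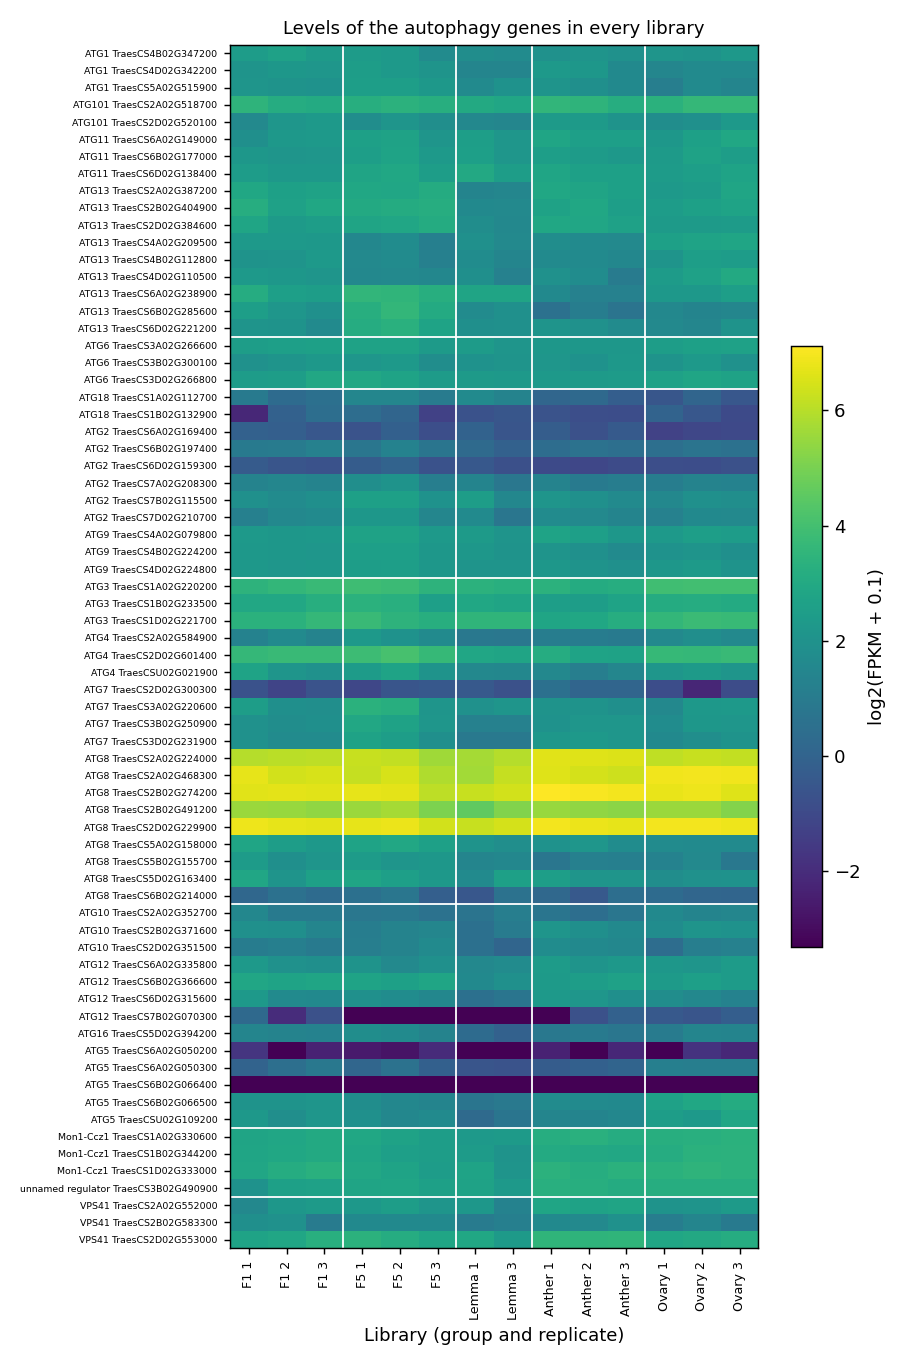
Level of each of the 70 autophagy genes (rows, labelled by protein and gene ID, with white lines between roles) in each of the 14 libraries (columns), as log2(FPKM + 0.1). The 5 abundant ATG8 genes form the bright band, and the dark rows are 1 ATG5 gene with no count in any library, a second ATG5 gene near 0, and the ATG12 gene on chromosome 7B, which is at 0 in all F5 and Lemma libraries.

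The ATG8 genes made up most of the signal. ATG8 is the ubiquitin-like protein that is joined to lipid on the growing membrane. Its 9 member genes held 61.1% of the summed FPKM of all members. The most abundant, TraesCS2D02G229900 (chromosome 2D, 200773617 to 200776230, on the build of the deposited table, which is not given in the sources used here), was at 116, 106 and 103 FPKM in F1 and at 106, 111 and 85.9 FPKM in F5. It was at 74.9 and 86.9 FPKM in Lemma, at 123, 111 and 106 FPKM in Anther and at 124, 123 and 116 FPKM in Ovary. F1 and F5 overlapped, and on this scale both Lemma libraries lay below all F1, Anther and Ovary libraries. Summed over the 9 genes, ATG8 reached 417 to 452 FPKM in F1 and 311 to 449 FPKM in F5, where the lowest value came from replicate 3. The Lemma libraries summed to 288 and 356 FPKM, and Anther (455 to 518 FPKM) and Ovary (452 to 493 FPKM) overlapped.

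The next most abundant genes were TraesCS2B02G274200 and TraesCS2A02G468300, also ATG8. The first was at 99.7 to 102 FPKM in F1, 68.7 to 106 in F5, 76.5 and 85.1 in Lemma, 97.8 to 115 in Ovary and 122 to 140 in Anther. The second was at 86.1 to 105 FPKM in F1, 58.0 to 89.5 in F5, 51.0 and 72.9 in Lemma, 118 to 122 in Ovary and 81.1 to 96.7 in Anther. By FPKM, Anther was the highest group for the first gene and Ovary for the second, with no overlap with any other group. In the TMM-scaled fit the second gene did not pass in Anther against Ovary (log2 -0.07, edgeR adjusted p = 0.710). Both other abundant ATG8 genes, TraesCS2A02G224000 and TraesCS2B02G491200, lay between 23.4 and 102 FPKM in all libraries. The 4 remaining ATG8 genes did not exceed 7.67 FPKM in any library.

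In F5 against F1, 5 autophagy genes were called higher and 0 lower of 68 tested. A call means a Benjamini-Hochberg adjusted p under 0.05 in edgeR's quasi-likelihood test, adjusted over all 70221 genes tested, and a change of at least 2-fold. The share called was 7.35%, against a background of 24.1% of all genes (10.4% higher and 13.7% lower). The called genes code for ATG13 (2 genes), ATG7 (2 genes) and ATG18 (1 gene). At an adjusted p under 0.05 with no minimum fold, a count added after the data were seen, 21 autophagy genes rose and 1 fell (32.4%), against 16.3% and 18.9% of all genes (35.2%). At an unadjusted p under 0.05, 29 of the 68 passed (42.6%, against 46.4% of all genes), and the DESeq2 Wald test also called 5 higher and 0 lower. The log2 fold change was above 0 for 57 of the 68 genes (83.8%, against 47.8% of all genes), with a median of 0.36, against a median of -0.05 over all genes.

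The size of these counts depended on single libraries. Leaving out F5 replicate 3 gave 9 genes called higher and leaving out F1 replicate 1 gave 7. Leaving out F1 replicate 2, F1 replicate 3, F5 replicate 1 or F5 replicate 2 gave 3, 2, 2 and 3. The 21 that rose at any fold became 5, 6, 6 and 6 in the latter 4 fits, in which 21.4% to 24.0% of all genes passed at any fold, and stood at 24 without F5 replicate 3 and 20 without F1 replicate 1. Of the 22 genes that passed in either direction, 4 also passed in each of the 6 fits with a library left out, 2 in 5 of them, 1 in 3, 8 in 2 and 7 in 1. The 4 were the ATG13 genes on 6D and 6B, the ATG7 gene on 3B and the ATG1 gene on 5A. On the FPKM scale, limma on log2(FPKM + 1) called 0 genes higher, with 5 higher and 5 lower at any fold. On that scale the median of all genes also moved, to -0.16, and the median of the members was 0.07, which leaves a difference of 0.23 between them against 0.41 in the edgeR fit. The ratio of FPKM means of a gene lies below its TMM-scaled fold change by a median of 0.26 log2 in this comparison, so that the 2 scales give different sizes for the same gene.

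**Figure D2:**
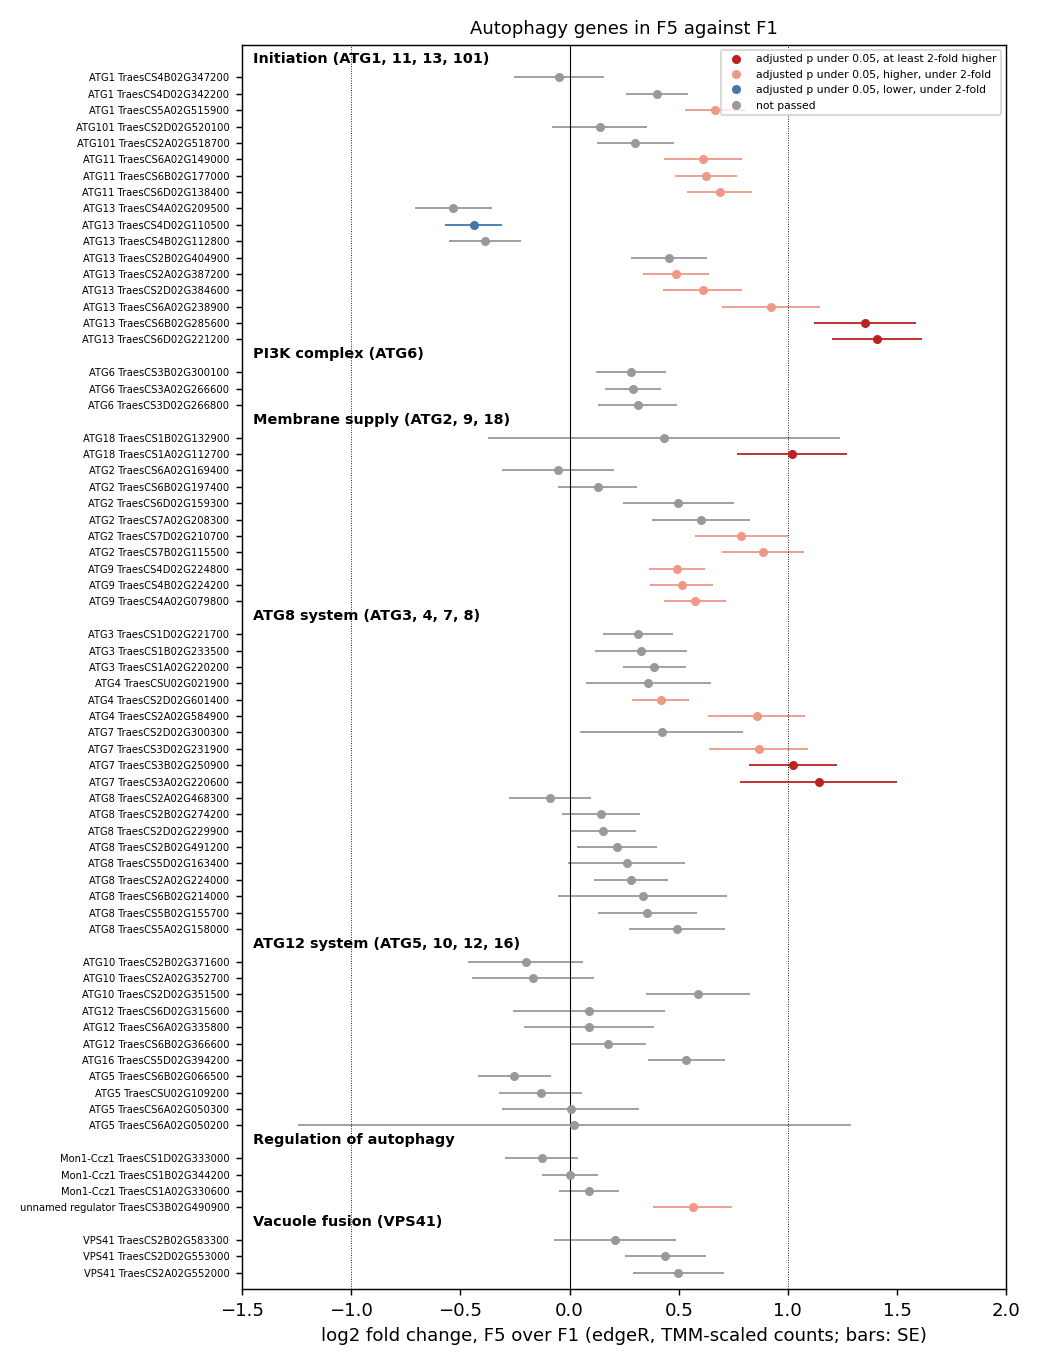
Log2 fold change of F5 over F1 (horizontal axis) for each of the 68 autophagy genes tested, with its SE as a bar, grouped by role; the dotted lines mark 2-fold. Points are dark red for the 5 genes called higher, pale red for the 16 that passed the adjusted p under 2-fold higher, blue for the ATG13 gene that passed lower, and grey for genes that did not pass.

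Among the initiation genes, 9 of 17 rose at any fold and 1 fell (58.8% in either direction, against 35.2% of all genes), with a median log2 fold change of 0.49. The strongest changes were in ATG13, the regulatory subunit that binds the ATG1 kinase. TraesCS6D02G221200 (ATG13, chromosome 6D, 311584331 to 311589009) was at 4.18, 3.98 and 3.13 FPKM in F1 and at 8.75, 9.87 and 6.51 FPKM in F5. All 3 F5 libraries lay above all 3 F1 libraries, and the log2 fold change was 1.41 (SE 0.21, edgeR adjusted p = 0.00374). It kept its direction in all 15 alternatives, at 0.97 to 1.55, and fell short of 2-fold on log2(FPKM + 1).

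Its counterpart on chromosome 6B, TraesCS6B02G285600, was at 5.76, 4.39 and 3.66 FPKM in F1 and at 9.39, 12.0 and 8.27 FPKM in F5. The groups did not overlap, and the log2 fold change was 1.35 (SE 0.23, edgeR adjusted p = 0.00628), or 0.96 in limma on log2(FPKM + 1). The copy on 6A, TraesCS6A02G238900, was at 8.77, 5.81 and 5.59 FPKM in F1 and at 11.6, 11.4 and 9.18 FPKM in F5, and rose by less than 2-fold (log2 0.92, SE 0.23, edgeR adjusted p = 0.0200, passed in 2 of 6 fits with a library left out).

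The 9 ATG13 genes lie in sets of 3 on chromosomes of group 2, 4 and 6, and the sets did not move alike. The log2 fold changes of F5 over F1 were 0.92 to 1.41 in the group 6 set, 0.46 to 0.61 in the group 2 set and -0.53 to -0.39 in the group 4 set. In the group 4 set TraesCS4D02G110500 was at 4.84, 4.54 and 4.29 FPKM in F1 and at 2.80, 2.89 and 2.72 FPKM in F5. Its groups did not overlap, and it was the only autophagy gene that fell at any fold in this fit (log2 -0.44, SE 0.13, edgeR adjusted p = 0.0394). It passed in 1 of the 6 fits that left out a library. Its partners on 4A and 4B had log2 fold changes of -0.53 and -0.39 and did not pass, though their groups did not overlap by FPKM either. The 4A gene was at 4.62 to 4.82 FPKM in F1 and 2.15 to 3.31 in F5. The 4B gene was at 4.06 to 4.89 FPKM in F1 and 2.25 to 3.19 in F5.

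Expressed as shares of the summed ATG13 FPKM of a library, a description chosen after the values were seen, the group 6 set held 27.3 to 33.7% in F1 and 42.1 to 50.8% in F5. It held 40.8 and 46.6% in the Lemma libraries, 21.0 to 21.6% in Anther and 22.1 to 25.3% in Ovary. The group 4 set held 24.6 to 30.5% in F1 and 12.5 to 14.4% in F5, 25.6 and 32.1% in Lemma, 37.5 to 41.4% in Ovary and 23.3 to 25.7% in Anther. The group 2 set held 38.5 to 42.2% in F1, 34.8 to 45.4% in F5, 27.0 and 27.7% in Lemma, 36.4 to 37.2% in Ovary and 53.0 to 55.1% in Anther. The group 6 share was thus high in F5 and Lemma, the group 4 share high in Ovary and low in F5, and the group 2 share high in Anther.

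**Figure D3:**
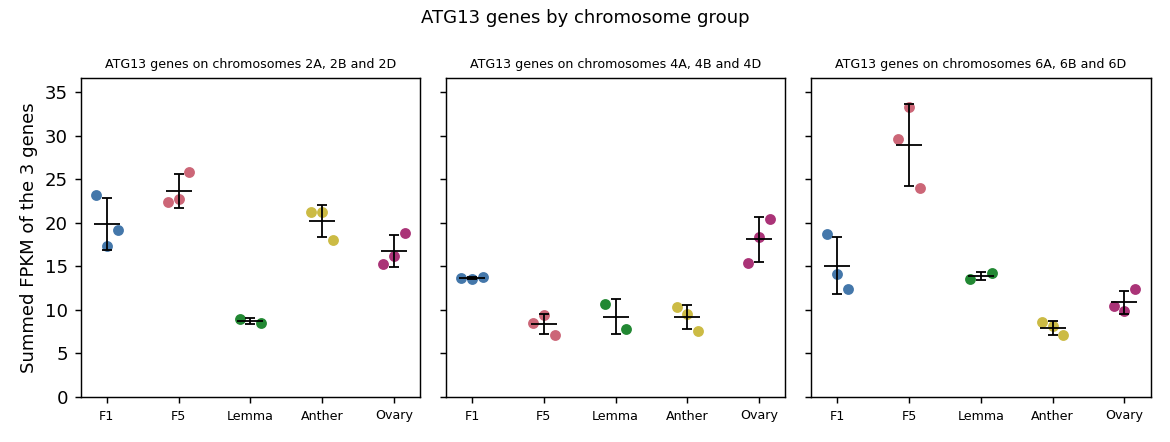
Summed FPKM of the 3 ATG13 genes on chromosomes of group 2, 4 and 6 (panels) in each library (points) of the 5 groups, with the group mean and SD as bars. The group 6 set is higher in every F5 library than in every F1 library, and the group 4 set is lower in every F5 library than in every F1 library.

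The other initiation genes moved less. The 3 genes of ATG11, a scaffold of the kinase complex, all rose by less than 2-fold, with log2 fold changes of 0.61 to 0.69 (edgeR adjusted p of 0.0131 to 0.0377). TraesCS5A02G515900, 1 of 3 members for the ATG1 kinase, was at 4.24, 4.01 and 3.90 FPKM in F1 and at 5.77, 5.70 and 4.65 FPKM in F5. Its groups did not overlap (log2 0.67, SE 0.14, edgeR adjusted p = 0.0121), and it passed in all 6 fits with a library left out. The other ATG1 genes, TraesCS4D02G342200 and TraesCS4B02G347200, had log2 fold changes of 0.40 and -0.05 and did not pass. Neither did the ATG101 genes, of which TraesCS2A02G518700 was the most abundant initiation gene, at 8.39 to 10.9 FPKM in F1 and 9.16 to 10.4 in F5.

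The 3 genes of ATG6, the plant Beclin, had log2 fold changes of 0.28 to 0.31 in F5 against F1, and none passed. TraesCS3D02G266800, the most abundant of them, was at 5.40 to 7.67 FPKM in F1 and 5.18 to 7.50 in F5. The 9 genes annotated as the kinase VPS34 or its partner VPS15 belong to the same complex but hold no autophagy text. All had fold changes above 0 (median log2 0.53), 6 had an unadjusted p under 0.05 and 0 reached a call. At any fold 3 rose and 0 fell. The share was 33.3%, against 16.3% of all genes that rose and 35.2% that passed in either direction.

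Of the 11 genes for membrane supply, 6 rose at any fold (54.5%, against 16.3% of all genes that rose) and 1 was called (9.09%, near the 10.4% of all genes called higher). That gene, TraesCS1A02G112700 (chromosome 1A, 115357679 to 115363324), codes for ATG18d, a member of a family that binds phosphatidylinositol 3-phosphate. It was at 1.80, 1.16 and 1.35 FPKM in F1 and at 2.71, 2.67 and 1.93 FPKM in F5. The groups did not overlap, and the log2 fold change was 1.02 (SE 0.25, edgeR adjusted p = 0.0211). Leaving out F1 replicate 2, F1 replicate 3, F5 replicate 1 or F5 replicate 2 ended the call, at an adjusted p of 0.0677 to 0.0734, and in limma on log2(FPKM + 1) the fold change was 0.50.

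All 3 genes of ATG9, the transmembrane protein of the vesicles that seed the autophagosome, rose by less than 2-fold (log2 0.49 to 0.58, edgeR adjusted p of 0.0212 to 0.0314). TraesCS4A02G079800, the most abundant gene for membrane supply, was at 4.93, 4.50 and 4.72 FPKM in F1 and at 6.32, 6.43 and 4.86 FPKM in F5, where replicate 3 lay within the F1 range. The 6 genes of ATG2, which moves lipid to the growing membrane, form a set on group 6 chromosomes, with log2 fold changes of -0.05 to 0.50 that did not pass, and a set on group 7. In the group 7 set TraesCS7B02G115500 and TraesCS7D02G210700 rose, with log2 fold changes of 0.89 and 0.79 (edgeR adjusted p of 0.0124 and 0.0288), and the copy on 7A at 0.60 did not pass.

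In the ATG8 system 5 of 19 genes rose at any fold and 0 fell. The share was 26.3%, against 16.3% of all genes that rose and 35.2% that passed in either direction. They were 3 genes of ATG7 and 2 of ATG4, and 0 of the 9 ATG8 genes passed. Whether the enzyme genes and the ATG8 genes differ was not tested. ATG7, the activating enzyme that both conjugation systems use, had 3 of 4 genes that rose, and 2 were called. TraesCS3B02G250900 was at 3.79, 3.39 and 3.63 FPKM in F1 and at 7.55, 6.35 and 4.44 FPKM in F5. The groups did not overlap, and the log2 fold change was 1.02 (SE 0.20, edgeR adjusted p = 0.00976). Its adjusted p stayed under 0.05 in the alternatives run, while its log2 fold change of 0.60 to 1.20 fell short of 2-fold in 8 of them.

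TraesCS3A02G220600, also ATG7, was at 5.59, 3.60 and 3.47 FPKM in F1 and at 10.0, 9.31 and 4.23 FPKM in F5. Here F5 replicate 3 lay inside the F1 range (log2 1.14, SE 0.36, edgeR adjusted p = 0.0466), and the gene passed in 2 of the 6 fits, those without F1 replicate 1 or F5 replicate 3. TraesCS3D02G231900 rose by less than 2-fold (log2 0.87, SE 0.23, edgeR adjusted p = 0.0253). The ATG7 gene outside this set, TraesCS2D02G300300, was at 0.347 to 0.639 FPKM in both groups and did not pass.

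Of the 3 genes of ATG4, the protease that trims ATG8, TraesCS2A02G584900 and TraesCS2D02G601400 rose with log2 fold changes of 0.86 and 0.42 (edgeR adjusted p of 0.0247 and 0.0453). The 3 genes of ATG3, which transfers ATG8 to lipid, were at 5.84 to 14.7 FPKM in both groups, with log2 fold changes of 0.31 to 0.39 that did not pass. The 9 ATG8 genes had log2 fold changes of -0.09 to 0.49, and none passed. Of the 5 abundant ones, 4 were slightly above 0 in the TMM-scaled fit and below 0 in limma on log2(FPKM + 1), so their direction turns with the scale.

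The ATG12 system had 0 genes that passed in edgeR among 11 tested in F5 against F1, and 2 with an unadjusted p under 0.05 (18.2%, against 46.4% of all genes). Its members are ATG12 itself, ATG10 that transfers it, ATG5 that receives it, and ATG16 that joins the pair. The most abundant, TraesCS6B02G366600 (ATG12), was at 7.08, 6.59 and 7.05 FPKM in F1 and at 6.53, 6.06 and 6.91 FPKM in F5. The groups overlapped, and the fold change, log2 0.18 in the TMM-scaled fit, was -0.08 on log2(FPKM + 1). The 4 tested ATG5 genes had log2 fold changes of -0.25 to 0.02 and the only ATG16 member, TraesCS5D02G394200, of 0.54.

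A further ATG12 gene, named here after its values were seen, was too low for the filter. TraesCS7B02G070300 (chromosome 7B, 77392159 to 77393677) had 33, 5 and 16 counts in the F1 libraries and 0 in all 3 F5 libraries. With the F5 total set to 3 counts, its share of all counts was at least 24.1-fold lower in F5 than in F1, a bound that covers counting error only. Without F1 replicate 1, which held most of the counts, the bound was 13.8-fold. The gene had 0 counts in both Lemma libraries, 0, 16 and 33 in Anther, and 26, 24 and 25 in Ovary. It was therefore present in 8 of the 9 F1, Anther and Ovary libraries and in no F5 or Lemma library.

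Among the regulators and vacuole fusion genes 1 of 7 rose at any fold in F5 against F1, beside 16.3% of all genes. TraesCS3B02G490900, whose ontology terms include positive regulation of autophagy and leaf senescence, was at 3.87, 5.99 and 6.13 FPKM in F1 and at 6.69, 6.96 and 5.97 FPKM in F5. The groups overlapped, and the adjusted p lay just under the threshold (log2 0.56, SE 0.18, edgeR adjusted p = 0.0497). The 3 Mon1-Ccz1 genes, which activate the small GTPase that directs fusion with the vacuole, had log2 fold changes of -0.13 to 0.09. The 3 genes of VPS41, a subunit of the HOPS tether, had 0.21 to 0.50, and none of these 6 genes passed.

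Related genes outside the text match were taken from lists over the whole table. TOR kinase holds autophagy back when nutrients are plentiful. Of the 24 tested genes of its complex and substrates, edgeR called 0 in F5 against F1, while 2 rose and 1 fell at any fold (12.5%) and 5 had an unadjusted p under 0.05 (20.8%). Of all genes, 24.1% were called, 35.2% passed at any fold and 46.4% had an unadjusted p under 0.05. The 37 tested other genes of the KEGG autophagy pathway had 0 calls in edgeR, with 5 that rose and 2 that fell at any fold (18.9%) and 13 with an unadjusted p under 0.05 (35.1%). Of the 3 SNF1-type kinase genes, 2 were called higher, but their orthology number belongs to the SnRK2 family and not to SnRK1, which activates autophagy. The first, TraesCS4B02G079300, was at 3.46, 5.10 and 4.09 FPKM in F1 and at 13.2, 11.3 and 8.15 FPKM in F5 (log2 1.63, SE 0.22, edgeR adjusted p = 0.00300). The second, TraesCS4A02G235600, had a log2 fold change of 1.26 (SE 0.27, edgeR adjusted p = 0.0132, and 0.0514 without F5 replicate 1).

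Genes with senescence in their text had 7 calls higher and 0 lower of 32 tested (21.9% called), beside the 10.4% higher and 13.7% lower of all genes. TraesCS7D02G531600, described as a senescence-associated protein, was at 3.21, 1.23 and 0.755 FPKM in F1 and at 12.5, 12.3 and 13.9 FPKM in F5 (log2 3.14, SE 0.54, edgeR adjusted p = 0.00646). The groups lay far apart, and the gene was at 0 in all Anther libraries. Cysteine protease genes were taken by triticain or cysteine-type peptidase activity in their text. They were called in both directions, 35 higher and 19 lower of 159 (22.0% and 11.9%). The genes with the largest changes in that list, TraesCS2A02G543500 and TraesCS4D02G074800, were at 3.72 to 7.30 and 5.39 to 6.99 FPKM in F1 and at 0 in all F5 libraries. Both differed between organs. The first was at 91.8 to 107 FPKM in Anther, 0 in Ovary and at most 0.0742 in Lemma. The second was at 5.73 to 32.3 FPKM in Anther, 14.7 to 27.3 in Ovary and 1.16 and 1.23 in Lemma.

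The 26S proteasome subunit genes, the other main route of protein breakdown, had 0 calls higher and 4 lower of 91 (4.40%, against 24.1% of all genes), with 1 that rose and 27 that fell at any fold (30.8%, against 35.2%). Among them TraesCS7A02G421600 fell from 1.43 ± 0.0701 FPKM in F1 to 0.312 ± 0.0552 in F5, and TraesCS1D02G307800 from 3.48 ± 0.371 to 1.37 ± 0.289 FPKM (mean ± SD, n = 3). The SNARE, HOPS and VPS genes, a list by text that was not limited to the vacuole, had 1 call higher and 6 lower of 63 (11.1%). In that list TraesCS4A02G247700 and TraesCS4B02G067200, both numbered as syntaxins, fell from 2.69 ± 0.761 and 1.02 ± 0.365 FPKM in F1 to 0.108 ± 0.124 and 0.0862 ± 0.0483 FPKM in F5. The ESCRT genes had 0 calls of 23, and 1 of them had an unadjusted p under 0.05 (4.35%, against 46.4%). Genes with programmed cell death in their text had 1 call higher and 3 lower of 16 (25%, near the 24.1% of all genes), the metacaspase gene rose by less than 2-fold (log2 0.67), and the 2 Bax inhibitor genes did not pass. The text pattern for vacuolar processing enzymes matched no gene.

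**Figure D4:**
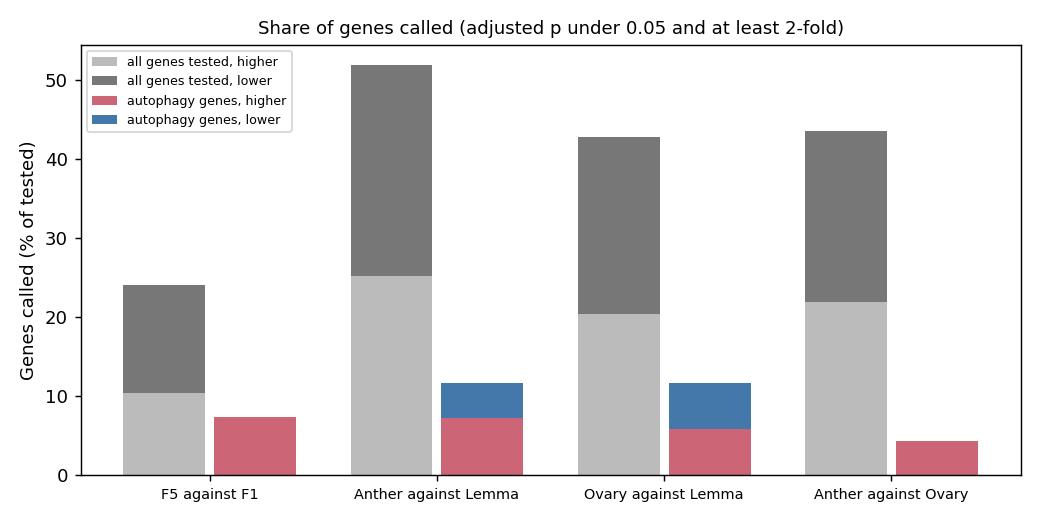
Percentage of genes called, with higher and lower stacked, among all genes tested (grey) and among the autophagy genes tested (colours) in the 4 comparisons. The autophagy genes lie below all genes in each comparison, at 7.35% against 24.1% in F5 against F1 and at 4.35% against 43.5% in Anther against Ovary.

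Between organs, few of the member genes were called at 2-fold or more. In Anther against Lemma 5 were called higher and 3 lower of 69 (11.6%), against a background of 51.9% of 76348 genes (25.2% higher and 26.7% lower). In Ovary against Lemma 4 were called higher and 4 lower (11.6%), against a background of 42.7% (20.4% higher and 22.4% lower). In Anther against Ovary 3 were called higher and 0 lower (4.35%), against a background of 43.5% (21.9% higher and 21.7% lower). In that last comparison 39 members had an unadjusted p under 0.05 in either direction (56.5%, against 62.8% of all genes), and DESeq2 called 6 higher and 0 lower. Among genes with a mean of at least 1 FPKM, which sets aside the low genes, the shares were 11.1% against 52.6%, 9.52% against 44.5% and 1.59% against 44.2% in the same order. For F5 against F1 they were 7.94% against 24.1%. By FPKM, 49.3% of members had all Anther libraries above all Lemma libraries and 10.1% below, against 43.5% and 33.5% of all genes. For Ovary against Lemma these were 58.0% and 8.7%, against 50.4% and 23.9%. For Anther against Ovary they were 18.8% and 30.4%, against 26.3% and 43.4%.

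At an adjusted p under 0.05 with no minimum fold, counts added after the data were seen, more members passed. In Anther against Lemma 21 were higher and 8 lower (42.0%), against a background of 62.9% (31.4% higher and 31.5% lower). In Ovary against Lemma 10 were higher and 17 lower (39.1%), against 54.4% (27.9% higher and 26.5% lower). In Anther against Ovary 25 were higher and 9 lower (49.3%), against 58.0% (28.8% higher and 29.1% lower). The balance of directions turned with the scale in the comparisons with Ovary, since limma on log2(FPKM + 1) gave 35 higher and 3 lower in Ovary against Lemma and 11 higher and 18 lower in Anther against Ovary. Single libraries also moved these counts, as the 10 higher in Ovary against Lemma became 4 without Ovary replicate 2 or 3 and 5 without Lemma replicate 3. The 8 lower in Anther against Lemma became 4 without Lemma replicate 1, and the 25 and 9 in Anther against Ovary became 16 and 5 without Anther replicate 2.

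The comparisons with Lemma depend on how libraries are scaled. TMM factors were 0.775 to 0.791 in Lemma and 1.18 to 1.22 in Ovary, and the TMM-scaled fold change of Ovary over Lemma lay below the ratio of FPKM means by a median of 0.62 log2. By FPKM means Lemma was the lowest group for 37 of 69 autophagy genes (53.6%, against 34.8% of all genes). By FPKM divided by TMM factors it was lowest for 17 (24.6%, against 25.4%). F5 was the highest group for 28 by FPKM (40.6%, against 18.1% of all genes). By FPKM divided by TMM factors it was highest for 36 (52.2%, against 20.5%). The median log2 fold change of the members in Ovary against Lemma was -0.21 by TMM and 0.32 in limma on log2(FPKM + 1), beside medians of all genes of 0.05 and 0.23. In Anther against Ovary it was 0.31 by TMM and -0.05 in limma on log2(FPKM + 1), beside -0.03 and -0.14. The genes named next, apart from the ATG12 gene on 7B, for which this was not followed, kept their direction in all alternatives run.

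ATG5 genes were called higher in Ovary than in Lemma. TraesCS6B02G066500 (chromosome 6B, 44284029 to 44288032) was at 6.12, 7.36 and 8.57 FPKM in Ovary, at 1.57 and 1.79 FPKM in Lemma, at 3.22, 3.10 and 3.02 FPKM in Anther, at 4.00, 4.00 and 4.30 FPKM in F1 and at 3.36, 2.75 and 2.49 FPKM in F5. Ovary lay above every other library, and the log2 fold change of Ovary over Lemma was 1.50 (SE 0.17, edgeR adjusted p = 0.000182). TraesCSU02G109200, a copy on no assigned chromosome, was at 5.45, 4.82 and 7.26 FPKM in Ovary and at 1.13 and 1.57 FPKM in Lemma (log2 1.49, SE 0.24, edgeR adjusted p = 0.00106). TraesCS6A02G050300, the third, was at 2.16, 2.12 and 2.09 FPKM in Ovary and at 0.577 and 0.538 FPKM in Lemma (log2 1.31, SE 0.25, edgeR adjusted p = 0.00258). All 3 were also lower in Anther than in Ovary, by less than 2-fold in the TMM-scaled fit and with no overlap, at log2 fold changes of -0.85 (SE 0.15, edgeR adjusted p = 0.00141), -0.78 (SE 0.20, edgeR adjusted p = 0.0109) and -0.98 (SE 0.21, edgeR adjusted p = 0.00468) in the same order.

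The other ATG5 gene models were nearly silent. TraesCS6A02G050200 (chromosome 6A, 25687155 to 25690866) lies next to TraesCS6A02G050300 (25692506 to 25698785) on the same strand, and reached at most 0.207 FPKM. TraesCS6B02G066400, which ends before TraesCS6B02G066500 begins on 6B, had 0 counts in all 14 libraries, which allows up to 3 counts over all of them. How the authors counted reads that fit several copies is not given in the sources used here, so the split of reads between near-identical copies, here and in all other sets, is uncertain.

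**Figure D5:**
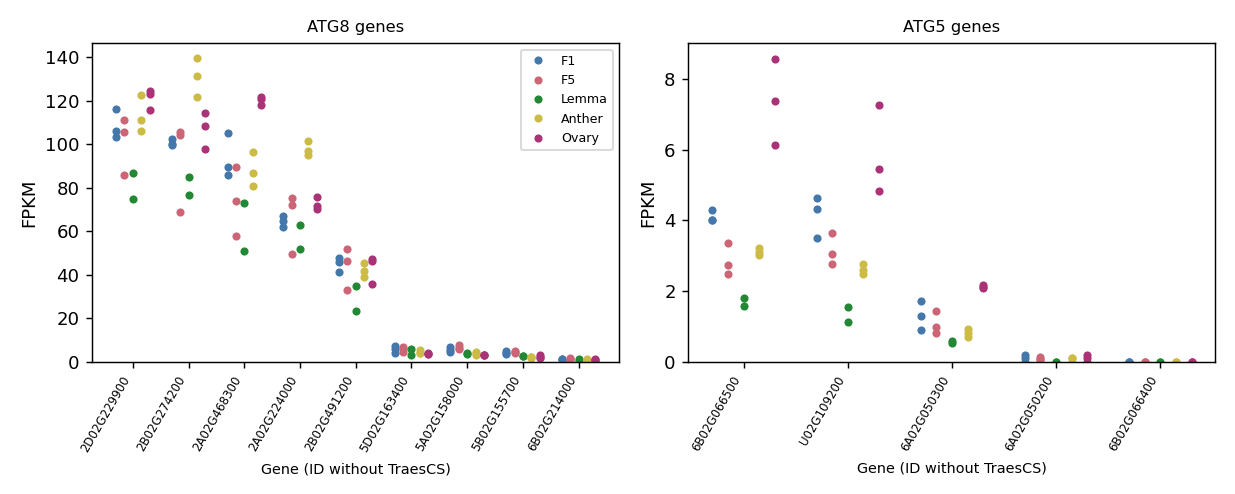
FPKM of the 9 ATG8 genes (left) and the 5 ATG5 genes (right) in each library, with points coloured by group and genes ordered by mean FPKM. The 5 ATG8 genes at the left lie between 23.4 and 140 FPKM, and in the 3 expressed ATG5 genes the Ovary points lie above those of every other group.

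An ATG13 gene and the ATG18d gene were called higher in Lemma than in Anther and in Ovary. TraesCS6A02G238900 (ATG13) was at 6.73 and 6.84 FPKM in Lemma, at 3.03, 2.32 and 2.31 FPKM in Anther and at 4.63, 4.67 and 5.67 FPKM in Ovary. Lemma lay above both other organs, with log2 fold changes of -1.65 for Anther over Lemma (SE 0.16, edgeR adjusted p = 4.94e-05) and -1.07 for Ovary over Lemma (SE 0.16, edgeR adjusted p = 0.00068). The ATG18d gene TraesCS1A02G112700 was at 3.07 and 2.47 FPKM in Lemma, at 0.999, 1.08 and 0.770 FPKM in Anther and at 0.587, 0.961 and 0.616 FPKM in Ovary. Its log2 fold changes were -1.78 (SE 0.28, edgeR adjusted p = 0.000776) and -2.55 (SE 0.28, edgeR adjusted p = 0.00015). For TraesCS6A02G238900 the fold change of Ovary over Lemma fell short of 2-fold on the FPKM scale, at -0.38, -0.44 and -0.65 in limma on log2(FPKM + 1), on log2(FPKM + 0.1) and after quantile normalization. That of Anther over Lemma for TraesCS1A02G112700 was -0.95 in limma on log2(FPKM + 1). In the TMM-scaled fit these were the only 2 members called higher in Lemma than in each of the other organs, against 16.8% of all genes, and both were also higher in F5 than in F1, with only the second at 2-fold.

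In the same ATG13 set, TraesCS6B02G285600 was lower in Anther (1.40, 2.08 and 1.54 FPKM) than in Lemma (3.17 and 3.70 FPKM), with a log2 fold change of -1.28 (SE 0.20, edgeR adjusted p = 0.000883). The ATG13 gene of group 2, TraesCS2A02G387200, went the other way, at 7.36, 6.73 and 6.04 FPKM in Anther and 2.56 and 2.69 FPKM in Lemma (log2 1.11, SE 0.17, edgeR adjusted p = 0.000676). Neither pair of groups overlapped. For TraesCS6B02G285600 the value was -0.74 in limma on log2(FPKM + 1) and -0.82 after quantile normalization, short of 2-fold.

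In Ovary against Lemma the calls lower also took in ATG2 and ATG1. The ATG2 gene TraesCS6A02G169400 was at 0.315, 0.374 and 0.390 FPKM in Ovary and at 0.876 and 0.584 FPKM in Lemma, with no overlap (log2 -1.64, SE 0.25, edgeR adjusted p = 0.000786). In limma on log2(FPKM + 1), on log2(FPKM + 0.1) and after quantile normalization it was -0.34, -0.83 and -0.53, short of 2-fold. The ATG1 gene TraesCS5A02G515900 was at 2.13, 3.12 and 2.61 FPKM in Ovary and at 3.12 and 3.87 FPKM in Lemma (log2 -1.04, SE 0.20, edgeR adjusted p = 0.00286). For that gene the groups met at 3.12 FPKM. Its fold change fell short of 2-fold without Lemma replicate 3 (log2 -0.86, adjusted p = 0.0224) and without Ovary replicate 1 (-0.93, adjusted p = 0.0100), and in limma on log2(FPKM + 1) it was -0.32 (adjusted p = 0.117).

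Genes of ATG10, ATG12 and ATG7 were among those called higher in Anther than in Lemma. TraesCS2D02G351500 (ATG10, chromosome 2D, 449695465 to 449697607) was at 3.32, 3.04 and 2.78 FPKM in Anther, at 1.34 and 0.947 FPKM in Lemma and at 1.23, 2.14 and 2.32 FPKM in Ovary. It was the only member called higher in Anther than in each of the other organs, against 14.3% of all genes, with log2 fold changes of 1.17 over Lemma (SE 0.31, edgeR adjusted p = 0.0119) and 1.07 over Ovary (SE 0.27, edgeR adjusted p = 0.0103). Without Lemma replicate 3 the first was 0.95 (adjusted p = 0.0729), and without Ovary replicate 1 the second was 0.86 (adjusted p = 0.0254), so each call rested on 1 library. With the replicate block the adjusted p over Lemma was 0.0536, and in limma on log2(FPKM + 1) the fold changes were 0.92 over Lemma and 0.50 over Ovary. No member was called higher in Ovary than in each of the other organs, against 9.55% of all genes.

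TraesCS6D02G315600 (ATG12) was at 4.96, 4.43 and 3.55 FPKM in Anther and at 1.34 and 1.56 FPKM in Lemma (log2 1.31, SE 0.37, edgeR adjusted p = 0.0142). Without Lemma replicate 1 its adjusted p was 0.0617, and with the replicate block 0.0609. TraesCS3D02G231900 (ATG7) was at 4.54, 4.95 and 4.34 FPKM in Anther and at 1.77 and 1.76 FPKM in Lemma (log2 1.15, SE 0.13, edgeR adjusted p = 0.00016). Its copies on 3A and 3B were not called in this comparison. The ATG12 gene on 7B, at 0 in Lemma, was also called, and its share of all counts was at least 12.9-fold higher in Anther and at least 17.6-fold higher in Ovary than in Lemma, with the Lemma total set to 3 counts. Anther replicate 1 was at 0 like Lemma, and without Anther replicate 3 the first bound was 6.85-fold.

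At 2-fold, Anther and Ovary differed in 3 members, of which ATG10 is given above. TraesCS2D02G300300, the low ATG7 gene on 2D (382444426 to 382451534), was at 1.33, 0.951 and 0.950 FPKM in Anther and at 0.447, 0.12 and 0.433 FPKM in Ovary (log2 2.05, SE 0.49, edgeR adjusted p = 0.00783). It was at 0.347 to 0.648 FPKM in the F1, F5 and Lemma libraries, so Anther was its highest group with no overlap. The ATG2 gene TraesCS6A02G169400 was at 0.756, 0.510 and 0.679 FPKM in Anther against 0.315 to 0.390 FPKM in Ovary (log2 1.23, SE 0.23, edgeR adjusted p = 0.00205). Without the 7 lowest genes, those under 1 FPKM on average, only ATG10 was left among these 3. In limma on log2(FPKM + 1) none of the 3 reached 2-fold, at 0.64 for TraesCS2D02G300300 and 0.28 for TraesCS6A02G169400.

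Copies of the same protein on the A, B and D chromosomes of a group were compared by the span of their fold changes within a set. In the 16 sets with all 3 copies, the log2 fold changes of F5 over F1 spanned a median of 0.19 within a set, under 0.5 in 14 sets and at most 0.79, in the ATG10 set on group 2. The medians of the sets themselves spanned 1.79, and 2.20, 1.36 and 1.66 in Anther against Lemma, Ovary against Lemma and Anther against Ovary. A span over 16 medians tends to be wider than a span over 3 copies, so these are not like measures. Between organs the median span within a set was 0.44 in Anther against Lemma, 0.36 in Ovary against Lemma and 0.38 in Anther against Ovary. It was under 0.5 in 10, 12 and 10 sets, and at most 1.70 (ATG10 on group 2), 1.54 (ATG2 on group 6) and 1.56 (ATG10 on group 2). Whether the spans differ between comparisons was not tested. Copies that share reads would also give like values, and how far they do was not tested.

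Across the 68 members tested in both fits, the fold changes of F5 over F1 and of Anther over Lemma, which share no library, had a Spearman correlation of -0.22, against -0.37 over 68542 genes. For Ovary over Lemma it was -0.49, against -0.46. These are descriptions across genes, which are not independent replicates, and they share the scaling of the libraries.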

How the data were processed

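RNA with an integrity number above 7.0 was extracted with Trizol and sequenced on Illumina libraries, per the labels' protocols. The deposited table holds the authors' raw counts per gene and the authors' FPKM for 100591 genes in 14 libraries. The submitters' processing notes name Bowtie 0.12.2 and the build mm8, a mouse build that cannot hold wheat genes, so the aligner, build, annotation, strand setting and handling of reads that fit several copies behind the wheat values stay unknown here (not given in the sources used here). Groups came from the sample titles. At 75016595 to 105526441 counts a library, counting error is below the spread between libraries for all but the lowest genes.

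Counts were scaled by TMM, filtered with filterByExpr and tested with robust quasi-likelihood models in edgeR 4.0.16 (R 4.3.3), two-sided, with Benjamini-Hochberg adjustment over all genes tested. F1 and F5 were fitted alone, and Lemma, Anther and Ovary in 1 fit. limma 3.58.1 on log2(FPKM + 1) or + 0.1, and DESeq2 1.42.0, were alternatives, with other filters, other size factors, a replicate block and each library left out. Whether groups overlap was judged on FPKM. Lack of overlap was a condition for naming called members, so it is no separate support for them. A gene with no count in a group was bounded by setting the group's total to 3 counts.

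The members, lists, comparisons and tests were chosen with earlier results of these data known. Role classes were assigned after the annotation text was seen. The naming rule took the most abundant member of each role, the 5 most abundant members, up to 5 called members in each direction of each comparison with at least 1 FPKM and no overlap between groups, and up to 2 called genes of each related list. Members named beside these were chosen after their values were seen. Of the gene IDs, 0 were found in the reference annotation used here, so no sequences are shown.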

Additional observations from a re-analysis of the deposited data

How the results depend on the processing

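Results moved with the scale, the member rule and single libraries. For F5 against F1, the 5 members called higher became 2 with a mean of at least 1 FPKM, 0 in limma on log2(FPKM + 1), 2 in limma on log2(FPKM + 0.1), 2 in limma on quantile-normalized log2(FPKM + 1), and 2 where only a match in the description counted. The 0 called lower became 1 with no filter on low counts, in limma with + 0.1 and in 1 fit over all 5 groups. The median of 0.359 became 0.0684 and 0.111 in limma with + 1 and + 0.1. The 21 higher at any fold became 5 in limma with + 1 and + 0.1, and 6 by description only. The 1 lower at any fold became 2 with at least 1 FPKM, in DESeq2 and in 1 fit over all 5 groups, 5 in limma with + 1 and + 0.1, and 0 in quantile-normalized limma and by description only. With single libraries left out, these results ranged over 2 to 9, 0 to 1, 0.280 to 0.419, 5 to 24 and 0 to 1.

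For Anther against Lemma, the 5 called higher became 3, 8 and 2 in limma with + 1, + 0.1 and quantile normalization and 2 by description only, and the 3 lower became 1 in limma with + 1 and 1 by description only. The median of 0.0403 became 0.226, 0.303 and 0.129 in the 3 limma fits and -0.195 by description only. The 21 higher at any fold became 13 with the replicate block and 7 by description only, and the 8 lower 4, 4 and 5 in the limma fits, 5 with the replicate block and 5 by description only. With single libraries left out these ranged over 4 to 6, 3 to 3, 0.00623 to 0.136, 15 to 18 and 4 to 11. For Ovary against Lemma, the 4 called higher became 10 in limma with + 0.1 and 2 with quantile normalization, and the 4 lower became 8 with median-of-ratios size factors, 8 in DESeq2, 1 in each limma fit and 1 by description only. The median of -0.205 became -0.296 with median-of-ratios, -0.297 in DESeq2, -0.113 with at least 1 FPKM, 0.325, 0.412 and 0.0721 in the limma fits, -0.265 by description only and -0.0913 without the 3 VPS41 genes. The 10 higher at any fold became 5 with median-of-ratios, 35, 35 and 20 in the limma fits, 3 with the replicate block and 5 by description only, and the 17 lower 27 with median-of-ratios, 28 in DESeq2, 3 in limma with + 1 and + 0.1 and 7 by description only. With single libraries left out these ranged over 3 to 3, 4 to 6, -0.223 to -0.123, 4 to 7 and 12 to 18.

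For Anther against Ovary, the 3 called higher became 6 with median-of-ratios, 6 in DESeq2, 1 with at least 1 FPKM, 0, 1 and 0 in limma with + 1, + 0.1 and quantile normalization, and 1 by description only. The 0 lower became 1 and 5 in limma with + 1 and + 0.1. The median of 0.311 became 0.388 with median-of-ratios and in DESeq2, -0.0506, -0.0875 and 0.136 in the limma fits, and 0.186 by description only. The 25 higher at any fold became 11 in limma with + 1 and + 0.1 and 7 by description only, and the 9 lower 18, 18 and 14 in the limma fits and 4 by description only. With single libraries left out these ranged over 3 to 5, 0 to 1, 0.270 to 0.348, 16 to 23 and 5 to 9. The cause of these moves was not tested, apart from the change of scale itself and the smaller lists.

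Fold changes of named genes, including members added after their values were seen, kept direction and 2-fold call in 841 of 941 alternatives, lost the 2-fold call in 72, gained it in 13 and turned sign in 15. Genes not called at 2-fold counted as kept while they stayed uncalled, even where the adjusted p no longer passed. In F5 against F1, TraesCS2A02G387200 and TraesCS6A02G149000 were kept in all 15 alternatives, yet each passed in 1 of 6 fits with a library left out. The alternatives that turned sign are given next. They were all in F5 against F1 and among genes that did not pass. In limma with + 1, + 0.1 and quantile normalization, TraesCS2D02G229900 turned to -0.109, -0.110 and -0.183, TraesCS2B02G274200 to -0.141, -0.142 and -0.193, and TraesCS2B02G491200 to -0.0601, -0.0619 and -0.0318. With + 1 and + 0.1, TraesCS2A02G224000 turned to -0.000996 and -0.00136, and TraesCS6B02G366600 to -0.0774 and -0.0878. With single libraries left out, TraesCS2A02G468300 ranged from -0.227 to 0.0610, above 0 without F1 replicate 1 and, at 0.0496, without F5 replicate 3.

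Replicate numbers were tried as a block, since the titles number replicates alike. Deviations of same-numbered libraries correlated at 0.015, 0.032 and -0.152 between F5 and F1 and at -0.105 to 0.034 between organs, so they were not taken as pairs. With the replicate block, 4 members were called higher in F5 against F1 with 12 higher and 0 lower at any fold, and 2 were called higher in Anther against Lemma, with 13 higher and 5 lower at any fold, while Ovary against Lemma had 3 higher at any fold. The block ended the calls of TraesCS6D02G315600 and TraesCS2D02G351500 in Anther against Lemma, and put TraesCS3B02G250900 just short of 2-fold in F5 against F1, at 0.995.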
